A study of Mus musculus with 50 samples.

Results

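Non-Hox homeobox genes of the ANTP class were followed in mouse embryonic stem cells (ESCs) with mutations of *Ezh1* and *Ezh2*. The genes were chosen by name, as the Nkx, Dlx, Msx, Barx, Barhl, Gbx, Emx, En, Evx, Hmx, Tlx, Lbx, Vax, Bsx, Dbx, Cdx, Hhex, Mnx and Meox families, and 40 of the 18055 genes in the table of normalized counts carried such a name. They belonged to 20 families. Of the 40 genes, 31 were of the NKL subclass, which holds Nkx, Dlx, Msx, En and related families, and 9 were of the HOXL subclass, which holds Gbx, Evx, Cdx and Meox beside the Hox genes. The table held no row under a name of Bsx or Mnx1, and these were not analysed here. Some genes of the other families, such as *Dlx2* and *Emx2*, also had no row under that name. The 40 genes are thus not the whole class.

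ANTP-class proteins are transcription factors that bind DNA through a homeodomain, and many of them set the fate of a region or tissue in the embryo. In ESCs most of these genes are kept off, and their promoters are classical targets of Polycomb group (PcG) proteins. Polycomb repressive complex 2 (PRC2), with the core subunits SUZ12 and EED and EZH2 or EZH1 as methyltransferase, methylates lysine 27 of histone H3 up to the trimethylated form H3K27me3. Acetylation of the same lysine (H3K27ac) marks active promoters and enhancers and excludes methylation of that residue.

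The parental line was E14, a mouse ESC line grown in 2i/LIF, a medium with inhibitors of differentiation signals and the cytokine LIF, and it served as wild type (WT). *Ezh2* KO cells lacked the whole *Ezh2* gene, and *Ezh1/2* double knockout (dKO) cells lacked *Ezh1* and *Ezh2*. *Ezh2* Y726D (Y726D) cells carried a point mutation that inactivates the methyltransferase and were made in *Ezh1* KO cells, so they had neither EZH1 nor active EZH2 but kept the EZH2 protein. *Ezh2* R685C (R685C) cells carried another point mutation of *Ezh2*, also in *Ezh1* KO cells, and a further line was dKO with HA-tagged human EZH1 put back. The mutants were clones made with CRISPR/Cas9, so an effect of a mutation and of the clone cannot be told apart. Expression was measured by SMART-seq2 RNA sequencing with 2 libraries each of WT, *Ezh2* KO, dKO and Y726D, and chromatin by 1 peak list per line and antibody. The labels do not say whether the 2 RNA libraries of a line came from separate cultures, so p-values measure the spread between these libraries, which may be technical.

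The 8 RNA libraries held 3604123 to 5181553 reads in genes. *Ezh2* was at 546 to 598 normalized counts in WT, at 0.97 to 1.05 in *Ezh2* KO, at 0.82 to 1.78 in dKO and at 422 to 613 in Y726D, where the protein is kept. *Ezh1* was at 227 to 378 normalized counts in WT and *Ezh2* KO and at 14.01 to 24.1 in the lines made in or with an *Ezh1* deletion, as the labels require. All 11 pluripotency genes examined, among them *Pou5f1*, *Sox2* and *Nanog*, passed the filter on low counts in this ESC material, with a summed level of 15399 to 16264 in WT and 13700 to 16101 in the mutants. Of the 11, *Dppa3*, a gene of naive ESCs and germ cells, rose in dKO (log2 fold change 1.32, limma adjusted p = 0.0775) and fell in Y726D (−2.66, adjusted p = 0.0113), and the other 10 were not called against WT.

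The bases just before the start sites of *Dbx2* and *Cdx4* are shown first, as 2 of the genes called higher than WT in dKO. They are examples and do not stand for the other called genes. The sequence is that of mm9, the build of the deposited peaks, it covers the 300 bases upstream of the most 5′ protein-coding start in the GENCODE annotation, and it runs 5′ to 3′ on the strand of the gene, with CpG dinucleotides in capitals. The stretches lie at chr15:95486392-95486691 on the minus strand for *Dbx2* and at chrX:100516437-100516736 on the plus strand for *Cdx4*.
Dbx2: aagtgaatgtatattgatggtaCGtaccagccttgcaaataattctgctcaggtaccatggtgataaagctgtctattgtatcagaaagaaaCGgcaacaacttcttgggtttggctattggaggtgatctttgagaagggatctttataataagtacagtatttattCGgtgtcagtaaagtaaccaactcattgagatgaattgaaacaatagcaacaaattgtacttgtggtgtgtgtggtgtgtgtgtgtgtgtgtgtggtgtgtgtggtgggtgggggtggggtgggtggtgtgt
Cdx4: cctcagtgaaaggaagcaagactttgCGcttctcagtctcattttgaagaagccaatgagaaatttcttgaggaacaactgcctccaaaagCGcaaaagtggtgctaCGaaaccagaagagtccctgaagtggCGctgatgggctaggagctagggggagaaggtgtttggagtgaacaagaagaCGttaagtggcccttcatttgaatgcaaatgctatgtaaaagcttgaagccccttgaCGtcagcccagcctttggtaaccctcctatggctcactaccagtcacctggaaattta

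*Dbx2* held 3 CpGs in this stretch and *Cdx4* held 6, against a median of 14 over all genes. Neither stretch was overlapped by a WT SUZ12 peak, although both genes had one elsewhere in the promoter window. Over the 40 genes the median observed-to-expected ratio of CpG in this stretch was 0.541, against 0.611 over 17419 genes with sequence and 0.651 over the 2988 genes with a WT SUZ12 peak. The SUZ12 peaks themselves, which often lay over the gene body, were richer. The strongest WT peak at each gene had a median ratio of 0.658, close to the 0.660 of all 5404 WT SUZ12 peaks.

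Promoter occupancy was read as a deposited peak within 5 kb of any annotated start site. In WT, 37 of the 40 genes had a SUZ12 peak, against 17.1% of the 17424 genes matched to the annotation. H3K27me3 was listed at 36 of 40 genes, against 22.0% of genes. SUZ12 and H3K27me3 occurred together at 35 genes. *Cdx4*, a factor of the posterior axis, and *Hhex*, a factor of anterior endoderm and liver, had SUZ12 without a WT H3K27me3 peak, *Nkx6-3*, a factor of the stomach epithelium, had a weak H3K27me3 peak without SUZ12, and *Cdx1* and *Meox1* had neither. *Cdx1* acts in the posterior axis and intestine, and *Meox1* in somites.

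The SUZ12 peaks at these genes were wide. The strongest WT peak per gene had a median width of 3598 bp, against 865 bp over all WT peaks, and it covered a start site at 26 of the 37 genes. The 5 strongest, by the −log10 p of the peak caller, belonged to *Cdx2*, a factor of trophectoderm and intestine, *Nkx2-1*, a factor of thyroid, lung and forebrain, *Emx1*, a factor of the cerebral cortex, *Evx2*, which lies beside the Hoxd cluster, and *Barhl2*, a factor of retina and spinal cord neurons. *Nkx1-2* tied with *Barhl2*. The −log10 p was 164 at *Cdx2* and *Nkx2-1*, 159 at *Emx1*, 152 at *Evx2* and 145 at *Barhl2*, which ranked these peaks 8 (tied), 13, 19 and 27 of the 5404. At the other end *Lbx2* was at 15.4, *Hhex* at 17.6, *Cdx4* at 20.8 and *Dbx2* at 23.0.

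The wide peaks were not shared between neighbours. Among the pairs that lay within 100 kb of each other, *Dlx5* and *Dlx6* were 9237 bp apart, *Hmx2* and *Hmx3* 9137 bp, *Dlx3* and *Dlx4* 15160 bp, *Tlx2* and *Lbx2* 16072 bp, and *Nkx2-1* and *Nkx2-9* 74481 bp. The promoter windows of 0 pairs overlapped, and 0 pairs shared a WT SUZ12 peak. At 4 genes, *Dlx4*, *Evx1*, *Nkx6-3* and *Vax2*, the window also held the start of another gene in the table, so a peak there can belong to either.

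The question put to the mutants was how much SUZ12 stays without EZH2, without both enzymes, or with an inactive enzyme. In *Ezh2* KO ESCs, where EZH1 is the only methyltransferase, 27 of the 37 genes kept a SUZ12 peak, or 73.0%, against 28.3% of the 2988 genes bound in WT (4.86% of all genes had a peak). The 10 genes without one included *Msx2*, *Nkx2-6*, *Dlx4*, *Barhl1*, *Meox2*, *Dbx2*, *Cdx4*, *Hhex* and *Lbx2*, and their WT peaks had a median −log10 p of 24.7, against 114 at the genes that kept one. In Y726D ESCs 33 genes kept a peak, or 89.2%, against 60.4% of the genes bound in WT (12.1% of all genes had a peak). The Y726D list is longer than that of *Ezh2* KO, and with lists of equal length the order of these lines turned, as given below. The 4 genes without one were *Cdx4*, *Evx1*, *Meox2* and *Nkx2-9*. In R685C ESCs 33 genes also had a peak (9.78% of all genes), but the 4 without one were *Dbx2*, *Gbx2*, *Hhex* and *Lbx2*.

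In dKO ESCs 11 genes still had a listed SUZ12 peak, or 29.7% of those bound in WT, against 6.76% of all genes bound in WT (1.16% of all genes had a peak). These were *Cdx2*, *Nkx2-1*, *Evx2*, *Barhl2*, *Msx1*, *Hmx3*, *Hmx2*, *Barx1*, *Nkx2-3*, *Nkx2-5* and *Dlx3*. Their WT peaks had a −log10 p of 93.4 to 164 with a median of 139, and those of the 26 genes without a dKO peak had 15.4 to 159 with a median of 74.2. The ranges overlapped: *Emx1* at 159, *Nkx1-2* at 145, *Tlx2* at 135 and *En2* at 127 had no dKO peak. The dKO peaks had a −log10 p of 10.4 to 14.6, just above the limit of 10 in the lists, and they covered at most 8.46% of a window. With a window of 1 kb 4 genes had one, and with p of at most 1e-20 0 had one.

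**Figure D1:**
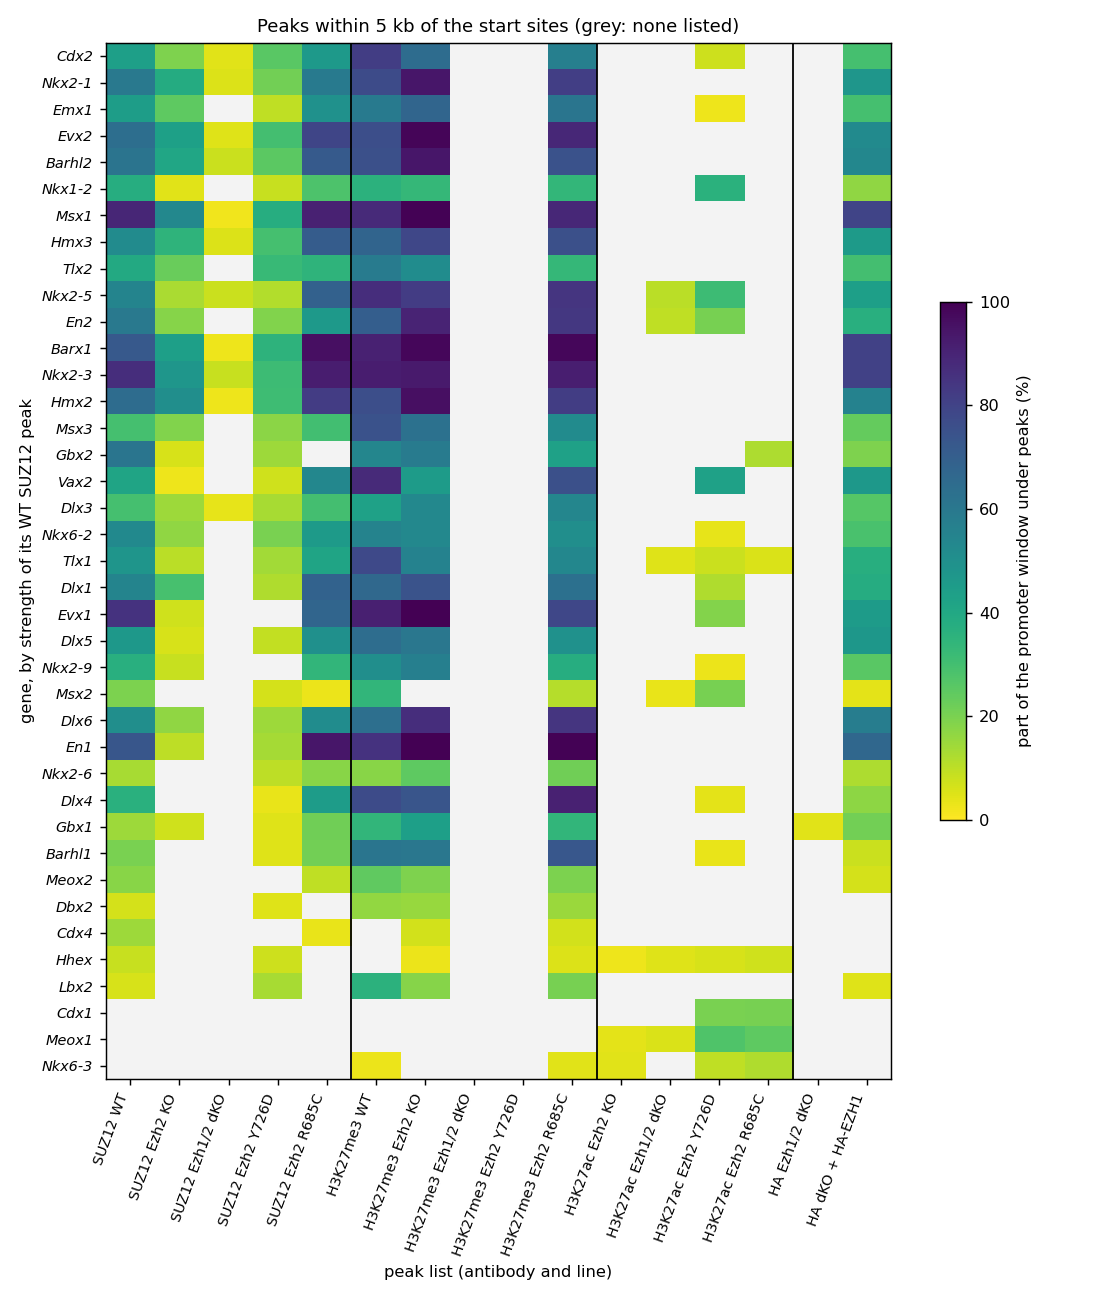
Part of the 10 kb or wider promoter window of 39 of the 40 genes (rows, ordered by the strength of the WT SUZ12 peak) that lay under listed peaks of SUZ12, H3K27me3, H3K27ac and HA (columns, by line), as a colour scale from 0% to 100%, with grey for no peak. SUZ12 colour is strong in WT and R685C, weaker in *Ezh2* KO and Y726D and faint at 11 genes in dKO, and the H3K27me3 columns of dKO and Y726D are empty.

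The extent of SUZ12 showed the same order as the plot of peaks by gene. The median part of the window under SUZ12 peaks was 42.7% in WT, 43.0% in R685C, 11.8% in Y726D, 9.22% in *Ezh2* KO and 0% in dKO. In Y726D 36 of 40 genes had less covered than in WT, and 1 had more. In *Ezh2* KO and in dKO 37 genes had less and 0 had more. The lists come from 1 library each with unknown depth, so these counts have no replicate check, and a −log10 p cannot be compared between lists.

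H3K27me3 divided the lines differently. In *Ezh2* KO ESCs 36 of the 40 genes had a peak, against 17.0% of genes, and the median covered part was 59.3% against 62.3% in WT. Covered parts do not measure amounts of H3K27me3, and the lists are on unlike scales. The median strongest −log10 p at the genes was 25.3 in WT and 292 in *Ezh2* KO. By western blot the paper reported a global loss of H3K27me3 in *Ezh2* KO, and by ChIP-seq less spreading beyond SUZ12 peaks. Of the 36 genes with a WT peak, 34 kept it, with *Msx2* and *Nkx6-3* as the exceptions, and *Cdx4* and *Hhex* had one that was not listed in WT. At 9 genes, among them *Barhl1*, *Cdx4*, *Dbx2*, *Dlx4*, *Hhex*, *Lbx2*, *Meox2* and *Nkx2-6*, the *Ezh2* KO list held H3K27me3 but the SUZ12 list of that line held no peak. In R685C ESCs 38 genes had a peak, against 28.0% of genes. In dKO and in Y726D ESCs 0 of the 40 genes had an H3K27me3 peak, where the lists held 53 and 3862 peaks and touched 0.115% and 1.38% of genes. Thus 33 genes had SUZ12 and 0 had H3K27me3 in Y726D.

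HA-tagged EZH1 put back into dKO ESCs gave a peak at 33 of the 40 genes, against 13.1% of genes. The untagged dKO control had a peak at *Gbx1* alone among the 40 genes, against 3.63% of genes. All 27 genes with SUZ12 in *Ezh2* KO cells were among the 33. The 4 genes with WT SUZ12 but no HA peak included *Cdx4*, *Dbx2* and *Hhex*, and these passed the expression filter described below.

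Mono- and dimethylation were read as the part of the window in broad listed regions, on the chromosomes that the lists of all 4 lines cover. H3K27me2 was scarce at these genes in WT and filled the window in *Ezh2* KO. Over 39 genes the median covered part was 0% in WT, 93.7% in *Ezh2* KO, 14.7% in dKO and 21.5% in Y726D. All 39 genes had more H3K27me2 covered in *Ezh2* KO than in WT, and 38 of 39 were over 50% covered, against 72.2% of the 2590 genes with WT SUZ12 and H3K27me3 peaks and 9.67% of the 13672 genes with no WT SUZ12 peak. The exception was *Meox1*, with neither mark in WT, at 10.3%. *Cdx1*, which also had neither mark in WT, was at 81.1% in *Ezh2* KO. A region was listed at 15 genes in WT (81.2% of genes), at 39 in *Ezh2* KO (51.3%), at 36 in dKO (88.4%) and at 36 in Y726D (89.1%).

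H3K27me1 could be read at 22 genes on 9 chromosomes. In WT 1 of them, *Meox1*, had a listed region, against 74.6% of the 9423 genes there. The other lines had a region at 18 genes in *Ezh2* KO (57.3% of genes), 15 in dKO (73.5%) and 21 in Y726D (85.2%), with median covered parts of 25.2%, 7.52% and 33.7%. These broad regions are weak, with a median strongest −log10 p at the genes of 1.40 to 3.14 for H3K27me1, and the lists of dKO and Y726D hold regions although these lines have no active PRC2 methyltransferase.

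**Figure D2:**
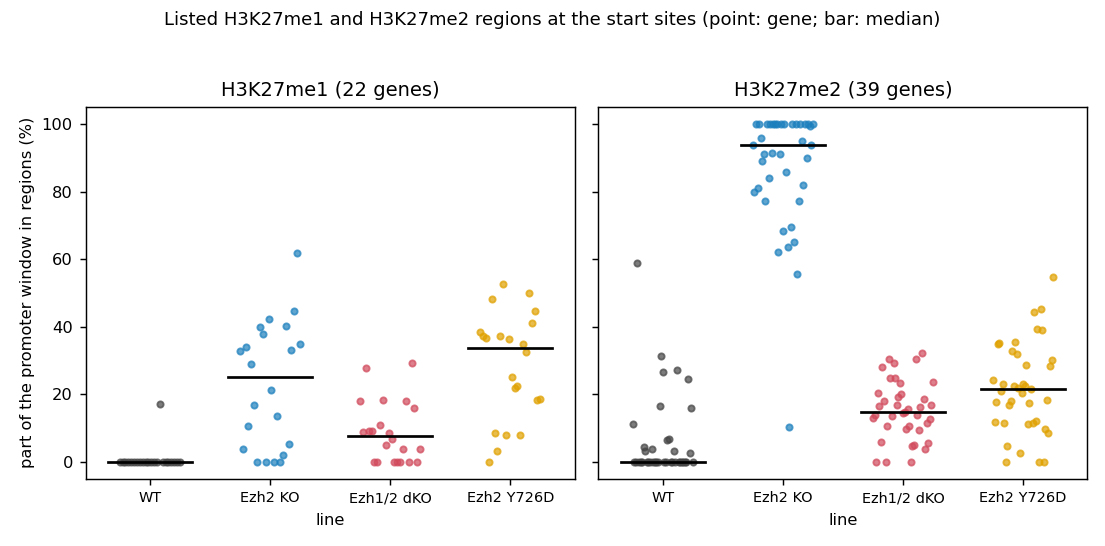
Part of the promoter window in listed H3K27me1 regions (left, 22 genes) and H3K27me2 regions (right, 39 genes), in percent, by line, with 1 point per gene and a bar at the median. The H3K27me2 points of *Ezh2* KO gather near the top, with a median of 93.7%, and the WT median is 0% in both plots, with single WT genes up to 58.9% for H3K27me2.

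H3K27ac was listed in the 4 mutant lines, and no WT list was used here. It was listed at 18 of 40 genes in Y726D, 6 in dKO, 6 in R685C and 3 in *Ezh2* KO. The corresponding shares of all genes were 60.4%, 37.1%, 59.1% and 48.9%. Among genes with a WT SUZ12 peak, H3K27ac was listed at 15 of 37 homeobox genes in Y726D (40.5%), against 49.9% of all 2988 such genes, at 5 in dKO (13.51% against 21.5%), at 3 in R685C (8.11% against 25.1%) and at 1 in *Ezh2* KO (2.70% against 18.0%). The differences between these shares were not tested. In Y726D 10 genes had an H3K27ac peak that the other mutants lacked, *Barhl1*, *Cdx2*, *Dlx1*, *Dlx4*, *Emx1*, *Evx1*, *Nkx1-2*, *Nkx2-9*, *Nkx6-2* and *Vax2*. All 6 genes acetylated in dKO were acetylated in Y726D, namely *En2*, *Hhex*, *Meox1*, *Msx2*, *Nkx2-5* and *Tlx1*. *Hhex* and *Meox1* were acetylated in all 4 mutants. At p of at most 1e-20 no H3K27ac peak of dKO or *Ezh2* KO remained at the 40 genes.

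Of the 18 genes acetylated in Y726D, 13 also had a SUZ12 peak in that line, where 33 of all 40 genes had one. Of the 6 in dKO 5 had none, where 11 of all 40 genes had one. These overlaps were near the shares over the 40 genes and were not tested. The Y726D and R685C lists were the long ones, with 40829 and 41185 peaks against 17618 in dKO. With each list limited to its 17618 strongest peaks the counts were 11 in Y726D, 6 in dKO, 4 in R685C and 2 in *Ezh2* KO. ATAC-seq, which marks open chromatin, gave a region at all 40 genes in each of 4 lines, as at 99.0% to 99.1% of genes. The median covered parts were 41.1% in WT, 43.9% in *Ezh2* KO, 45.7% in dKO and 46.8% in Y726D. These lists hold 752012 to 798241 regions, and the median strongest −log10 p at the genes was 1.81 to 1.97. A listed region therefore cannot tell an open promoter from a closed one here.

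Expression was low for most of the 40 genes. At a mean of at least 5 normalized counts over the 8 libraries, 14 genes could be tested, among them *Cdx1*, *Cdx2*, *Cdx4*, *Dbx2*, *En2*, *Gbx2*, *Hhex*, *Meox1*, *Msx2*, *Nkx2-9*, *Nkx6-2*, *Nkx6-3* and *Vax2*. A gene that passes only because it is high in a mutant favours a change, so the counts below describe these 14 and not the 40. Calls needed a limma adjusted p below 0.1 and a log2 difference of at least 1 in either direction, fitted on log2 of the normalized count plus 1, adjusted over 13872 genes. Fold changes on this scale understate the change of low genes, and fewer cells with a transcript and less transcript per cell cannot be told apart in these bulk libraries.

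In *Ezh2* KO ESCs 0 of the 14 genes were called against WT (0.404% of all tested genes were, and 0.0937% rose). An unadjusted p below 0.05 was seen for 3 of them. The median log2 fold change was −0.31, against −0.01 over all genes. edgeR and DESeq2 on the recovered reads also called 0. In dKO ESCs 4 genes were called (4.02% of all tested genes were). Of these, 3 rose, *Dbx2*, *Cdx4* and *En2* (3.63% of all tested genes rose), and 1 fell, *Nkx6-3* (0.389% fell). The median was 0.94, against 0.01. In Y726D ESCs 2 genes were called (2.72% of all tested genes were). *En2* and *Meox1* rose (1.66% of all tested genes rose), and 0 fell (1.06%). The median was 1.52, against −0.01.

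**Figure D3:**
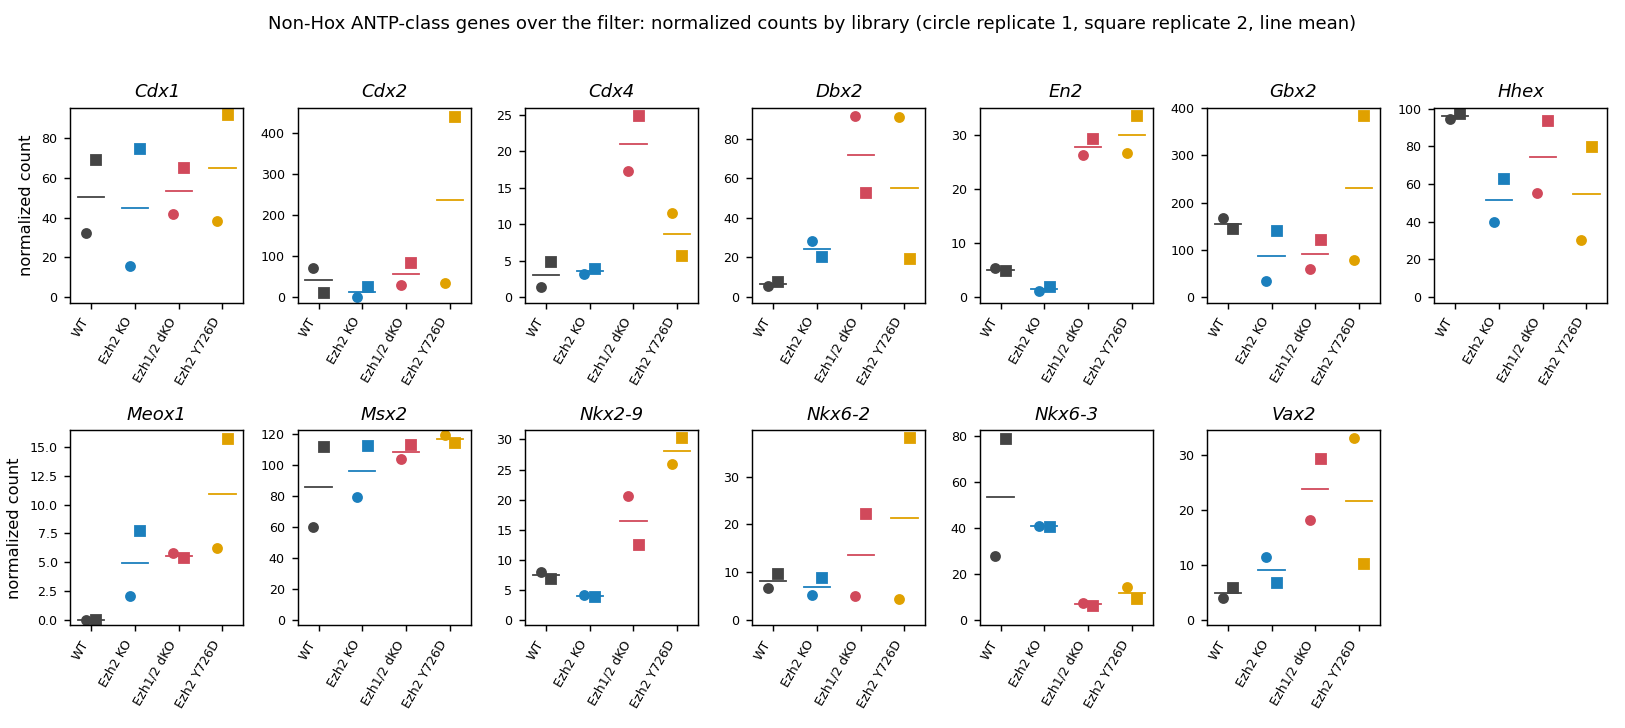
Normalized counts of 13 tested genes in each library of WT, *Ezh2* KO, dKO and Y726D (circle replicate 1, square replicate 2, short line the mean of 2), each gene on its own linear axis. *En2* is at 26.4 to 33.6 in the 4 libraries without active PRC2 and at 1.05 to 5.34 in the other 4, and *Nkx6-3* runs the opposite way.

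*En2*, a factor of the midbrain-hindbrain boundary, was the clearest of the neural genes. It was at 5.34 and 4.81 normalized counts in WT, 1.05 and 1.94 in *Ezh2* KO, 26.4 and 29.3 in dKO and 26.7 and 33.6 in Y726D. The 4 libraries of the latter pair of lines were above all others and overlapped each other. The log2 fold change against WT was 2.25 ± 0.51 (SE) in dKO (limma adjusted p = 0.0554) and 2.35 ± 0.51 in Y726D (adjusted p = 0.0586). In *Ezh2* KO both libraries were below WT, at −1.31 ± 0.51 (adjusted p = 0.474). Against *Ezh2* KO the change was 3.56 ± 0.51 in dKO (adjusted p = 0.00952) and 3.66 ± 0.51 in Y726D (adjusted p = 0.00958). The *En2* promoter had a listed H3K27ac peak in both of these lines and in neither *Ezh2* KO nor R685C, and SUZ12 in Y726D but not in dKO. The dKO H3K27ac peak was just over the list limit of 10, at a −log10 p of 10.5.

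*Dbx2*, a factor of intermediate spinal cord progenitors, was at 5.34 and 7.70 normalized counts in WT, 28.2 and 20.3 in *Ezh2* KO, 91.5 and 52.4 in dKO and 90.9 and 19.0 in Y726D. All 6 mutant libraries were above both WT libraries, and those of Y726D were far apart. The log2 fold change against WT was 3.24 ± 0.67 in dKO (limma adjusted p = 0.042). It was 2.53 ± 0.67 in Y726D (adjusted p = 0.107) and 1.75 ± 0.67 in *Ezh2* KO (adjusted p = 0.469). Without Y726D replicate 2, *Dbx2* was called in that line (3.63, adjusted p = 0.0277), and DESeq2 called it with all libraries (3.07, adjusted p = 0.0054). Its promoter had a weak SUZ12 peak in WT and Y726D and no H3K27ac peak in any line.

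*Nkx2-9*, a factor of the ventral neural tube, was at 8.0 and 6.74 normalized counts in WT, 4.18 and 3.87 in *Ezh2* KO, 20.6 and 12.4 in dKO and 25.9 and 30.2 in Y726D. The libraries of the 4 lines did not overlap. It was called between Y726D and *Ezh2* KO (2.53 ± 0.50, limma adjusted p = 0.041) and not against WT, where the change was 1.79 ± 0.50 in Y726D (adjusted p = 0.125) and 1.03 ± 0.50 in dKO (adjusted p = 0.303). *Vax2*, a factor of the ventral eye, was at 4.0 and 5.78 in WT, 11.5 and 6.77 in *Ezh2* KO, 18.1 and 29.3 in dKO and 33.0 and 10.1 in Y726D. The log2 fold change of *Vax2* against WT was 2.05 ± 0.64 in dKO (adjusted p = 0.135), 1.74 ± 0.64 in Y726D (adjusted p = 0.249) and 0.76 ± 0.64 in *Ezh2* KO (adjusted p = 0.786), so all mutant libraries exceeded WT but no call was made.

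*Gbx2*, which acts in the hindbrain and in the pluripotency network, was at 167 and 144 normalized counts in WT, 34.5 and 139 in *Ezh2* KO, 60.2 and 122 in dKO and 78.5 and 384 in Y726D. The replicates of each mutant were far apart, and those of Y726D lay on either side of both WT libraries. The log2 fold change against WT was −1.15 ± 0.77 in *Ezh2* KO (limma adjusted p = 0.729) and −0.85 ± 0.77 in dKO (adjusted p = 0.584). *Nkx6-2*, a factor of the ventral spinal cord, ranged from 4.46 to 38.0 in Y726D and overlapped WT in each mutant line.

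The Cdx genes, which act in trophectoderm, the posterior axis and the intestine, did not move as a group. *Cdx4* was at 1.33 and 4.81 normalized counts in WT, 3.14 and 3.87 in *Ezh2* KO, 17.3 and 24.9 in dKO and 11.6 and 5.59 in Y726D. Both dKO libraries were above all other libraries. The log2 fold change against WT was 2.56 ± 0.66 in dKO (limma adjusted p = 0.0818) and 1.31 ± 0.66 in Y726D (adjusted p = 0.421). The call was lost with DESeq2 (adjusted p = 0.213). All WT and *Ezh2* KO libraries were under 5 normalized counts, so *Cdx4* passed the filter on the mean only through dKO and Y726D. As with *Meox1* below, a gene with its WT level had to differ to be tested, and the filter thus favours the dKO call. *Cdx2* was at 70.7 and 9.63 in WT, 1.05 and 25.2 in *Ezh2* KO, 28.03 and 83.5 in dKO and 33.0 and 440 in Y726D. Its replicates were far apart within every line, and every mutant overlapped WT. *Cdx1* ranged from 15.7 to 91.7 over the 8 libraries, and every mutant overlapped WT there too.

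Among the mesodermal genes, *Meox1* had 0 reads in both WT libraries. It was at 2.09 and 7.74 normalized counts in *Ezh2* KO, 5.77 and 5.33 in dKO and 6.24 and 15.7 in Y726D. All 6 mutant libraries were above WT. The 21 reads of Y726D were 6.21 times the floor of 3 reads over both WT libraries, after correction for depth. This ratio takes the mutant reads as exact and is not a lower bound of the change. The corresponding ratios to the floor were 3.31 in dKO and 2.996 in *Ezh2* KO. *Meox1* had a mean of 5.35 normalized counts over the 8 libraries, just over the filter of 5, and passed it only through its mutant libraries, so that a gene with its WT level had to differ to be tested. The fitted log2 fold change was 3.46 ± 0.76 in Y726D (limma adjusted p = 0.0614), 2.71 ± 0.76 in dKO (adjusted p = 0.102) and 2.38 ± 0.76 in *Ezh2* KO (adjusted p = 0.343). With edgeR the Y726D call was lost (adjusted p = 0.1), and DESeq2 did not call *Meox1* there either. The *Meox1* promoter had no SUZ12 or H3K27me3 peak in any line and had H3K27ac in all 4 mutants.

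*Msx2*, a target of BMP signals in limb and neural crest, was at 60.03 to 112 in WT and 79.5 to 119.5 in the mutants, and no change was called.

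*Nkx6-3* was the gene called lower in dKO. It was at 28.01 and 79.0 normalized counts in WT, 40.8 and 40.6 in *Ezh2* KO, 7.42 and 6.22 in dKO and 14.3 and 8.95 in Y726D. The 4 libraries of the latter pair of lines were below the other 4, and the WT libraries were far apart. The log2 fold change against WT was −2.63 ± 0.54 in dKO (limma adjusted p = 0.0422), −1.97 ± 0.54 in Y726D (adjusted p = 0.122) and −0.21 ± 0.54 in *Ezh2* KO (adjusted p = 0.945). Against *Ezh2* KO it was −2.42 ± 0.54 in dKO (adjusted p = 0.0582). DESeq2 called the fall in Y726D (−2.20, adjusted p = 0.0545), as did limma without WT replicate 1 (−2.70, adjusted p = 0.0594). The *Nkx6-3* promoter had no SUZ12 peak in any line, and H3K27ac was listed in *Ezh2* KO, Y726D and R685C but not in dKO. *Hhex* was at 94.7 and 97.2 in WT and at 30.3 to 93.2 in the mutants, below WT in all 6 mutant libraries, with log2 fold changes of −0.95 ± 0.47 in Y726D (adjusted p = 0.411) and −0.93 ± 0.47 in *Ezh2* KO (adjusted p = 0.622).

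**Figure D4:**
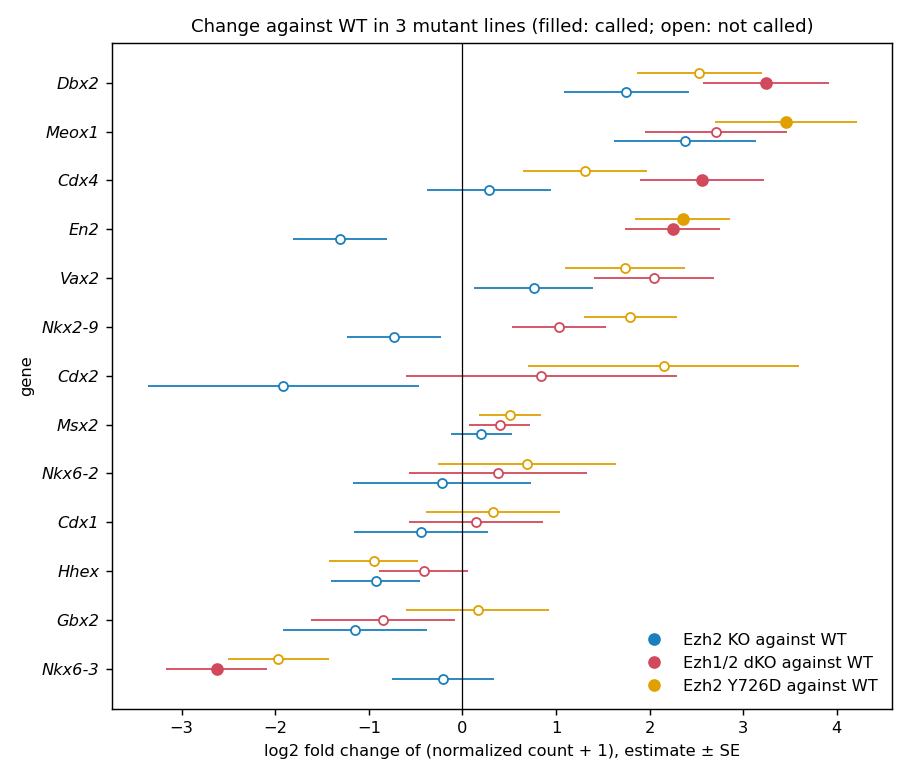
Log2 fold change of 13 tested genes against WT in *Ezh2* KO, dKO and Y726D (estimate ± SE, on log2 of the normalized count plus 1), with filled points where the change was called. *Dbx2*, *Cdx4*, *En2* and *Nkx6-3* are filled for dKO, *En2* and *Meox1* for Y726D and no gene for *Ezh2* KO.

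These calls rested on few libraries. Without dKO replicate 1 or replicate 2 no gene was called against WT in that line, with adjusted p from 0.247 to 0.479 for the 4 genes, where the remaining library is assumed to vary like the other lines. The same fits called 5 and 3 of all genes in place of 557, so the loss was not particular to these 4. Without WT replicate 1, *Dbx2* (adjusted p = 0.111) and *Cdx4* (0.205) lost their calls in dKO, and without WT replicate 2, *En2* (0.101) and *Nkx6-3* (0.107) did. In Y726D, *En2* lost its call without WT replicate 1 (0.113), WT replicate 2 (0.122) or Y726D replicate 2 (0.221), and *Meox1* without WT replicate 1 (0.126) or 2 (0.121). Without Y726D replicate 2 *Meox1* fell under the filter and was not tested, which left 13 genes. The direction of these genes could not turn in such fits, because their libraries did not overlap between the lines compared. An unchanged direction is therefore no check of the calls.

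The mutants were also set against each other. Between dKO and *Ezh2* KO, 3 genes were called (3.58% of all tested genes were). *En2* was among those that rose (3.52% of all tested genes rose), and *Nkx6-3* fell (0.0577% fell). Between Y726D and *Ezh2* KO, 2 genes were called (3.53% of all tested genes were). *En2* and *Nkx2-9* rose (2.31% of all tested genes rose) and 0 fell (1.21%). Between Y726D and dKO, 0 of the 14 genes were called (1.68% of all tested genes were), none of them reached an unadjusted p of 0.05, and the estimates ran from −1.26 ± 0.66 for *Cdx4* to 1.31 ± 1.45 for *Cdx2*. edgeR and DESeq2 called 0 there as well. Without dKO replicate 1 or 2, 0 of the 14 genes were called against *Ezh2* KO in that line, and 61 and 53 of all genes were, in place of 496. Without *Ezh2* KO replicate 1, *Nkx6-3* lost its call (adjusted p = 0.275), and without replicate 2 it did as well (0.21). *Nkx2-9* lost its call without *Ezh2* KO replicate 1 (0.154) or 2 (0.179) or Y726D replicate 2 (0.19). Without Y726D replicate 1, 4 genes were called against *Ezh2* KO in place of 2.

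A WT SUZ12 peak marked 11 of the 14 tested genes, and the 3 without one were *Cdx1*, *Meox1* and *Nkx6-3*. Of the 11, 3 rose and 0 fell in dKO, with a median log2 fold change of 1.03, against 0.73 over the 1942 tested genes with a WT SUZ12 peak, of which 12.3% rose. In Y726D 1 of the 11 rose, with a median of 1.74 against 0.44, where 6.85% rose. In *Ezh2* KO 0 rose, with a median of −0.40 against −0.10, where 0.206% rose.

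The 26 genes under the filter were *Barhl1*, *Barhl2*, *Barx1*, *Dlx1*, *Dlx3*, *Dlx4*, *Dlx5*, *Dlx6*, *Emx1*, *En1*, *Evx1*, *Evx2*, *Gbx1*, *Hmx2*, *Hmx3*, *Lbx2*, *Meox2*, *Msx1*, *Msx3*, *Nkx1-2*, *Nkx2-1*, *Nkx2-3*, *Nkx2-5*, *Nkx2-6*, *Tlx1* and *Tlx2*. Over all 8 libraries they had between 2 reads (*Evx2* and *Nkx2-6*) and 34 reads (*Tlx1*) each. All 26 had SUZ12 and H3K27me3 in WT. Their summed level was 29.3 and 30.8 normalized counts in WT, 17.8 and 8.71 in *Ezh2* KO, 58.5 and 61.3 in dKO and 66.9 and 102 in Y726D. The libraries of *Ezh2* KO were below WT and those of dKO and Y726D above it.

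**Figure D5:**
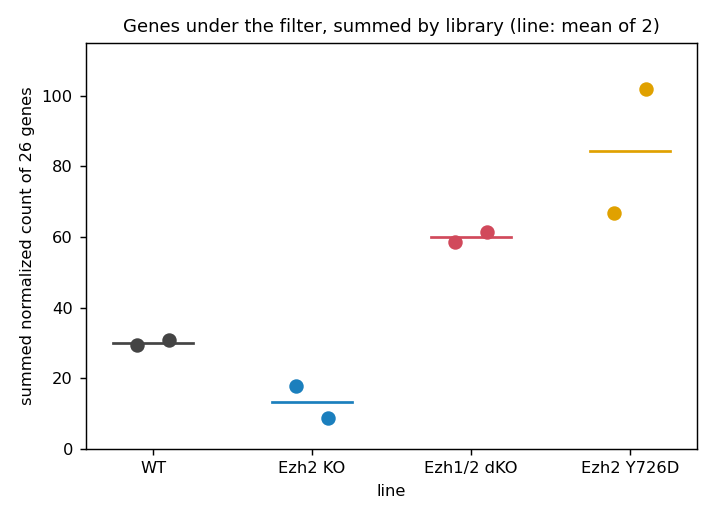
Summed normalized count of the 26 genes under the filter in each library (points) with the mean of 2 libraries per line (short line), on a linear axis from 0. The dKO and Y726D libraries sit between 58.5 and 102, above the WT libraries at 29.3 and 30.8, and the *Ezh2* KO libraries lie below WT.

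Among these genes some had reads in mutants and none in WT. *Tlx1*, a factor of spleen development, had 0 reads in WT and *Ezh2* KO, 9 and 3 reads in dKO and 16 and 6 in Y726D. These were 3.06 and 6.51 times the floor of 3 reads over both WT libraries, after correction for depth. Such ratios take the mutant reads as exact and are not lower bounds. *Dlx3*, a factor of placenta and skin, had 0 reads in WT and *Ezh2* KO, 6 and 13 in dKO and 2 and 7 in Y726D, or 4.84 and 2.66 times that floor. *Dlx5*, a factor of limb bone and branchial arches, had 0 reads in WT and *Ezh2* KO, 1 and 7 in dKO and 6 and 5 in Y726D, or 2.04 and 3.25 times that floor. With no filter on low counts, limma called *Dlx3* and *Tlx1* in dKO against WT (adjusted p = 0.071 and 0.0943) and *Tlx1* in Y726D (adjusted p = 0.0613).

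Other genes under the filter had reads in WT as well. *Nkx1-2*, a factor of the tail bud, had 3 reads in WT and 21 in Y726D, a depth-corrected ratio of 6.21 (95% exact counting interval 1.85 to 32.5), and 2 in dKO, a ratio of 0.510 (0.0426 to 4.45). *Evx1*, a factor of the primitive streak, had 2 and 16 reads in WT and Y726D (ratio 7.10, 1.67 to 63.6). *Nkx2-5*, a factor of the heart, had 3 and 14 (ratio 4.14, 1.16 to 22.5). *Barx1*, a factor of tooth and stomach, had 1 read in WT and 13 in dKO (ratio 9.94, 1.49 to 422). *Lbx2* had 11 reads in WT and 1 in *Ezh2* KO (ratio 0.0817, 0.0019 to 0.562). These genes were singled out after their values were seen, and intervals cover counting error only. The floors cover the counting error of WT alone. In Y726D, where 18 of the 40 genes had H3K27ac, *Nkx1-2*, *Evx1*, *Tlx1* and *Nkx2-5* had it and *Dlx3*, *Dlx5*, *Barx1* and *Lbx2* did not. The other genes under the filter with H3K27ac there were *Barhl1*, *Dlx1*, *Dlx4* and *Emx1*. In WT and Y726D these had 1 and 1, 0 and 4, 4 and 0, and 1 and 7 reads. A link between the peak and the reads was not tested.

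The related Hox genes were called more often. Of 36 Hox genes, 20 could be tested. In dKO 11 rose, in Y726D 10 and in *Ezh2* KO 0, where 3.63%, 1.66% and 0.0937% of all tested genes rose. The median log2 fold changes were 3.24, 2.90 and 0.31. Here too the filter favours a change: *Hoxd13*, at 0 in WT and *Ezh2* KO, passed it only through dKO and Y726D. These values describe the 20 and not the 36. The difference from the 14 genes above was not tested. Hox and Cdx proteins bind DNA with Pbx and Meis cofactors, of which 7 of 7 could be tested. *Meis1* rose in all 3 mutant lines (log2 fold change 1.96 in *Ezh2* KO, 2.73 in dKO and 1.84 in Y726D), *Meis2* rose in *Ezh2* KO (1.36), and 0 fell. Of 5 genes of the Groucho corepressor family (*Tle1*, *Tle2*, *Tle3*, *Tle4* and *Aes*), 0 were called in any mutant against WT. Of 6 further ANTP genes outside the families named, *Nanog* alone could be tested and was not called.

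Markers of other cell types were examined because homeobox genes also mark differentiated cells. Of 9 trophectoderm genes, 7 could be tested and 4 rose in dKO and in Y726D (*Gata3*, *Krt8*, *Krt18* and *Tfap2a*), and 1 in *Ezh2* KO (*Tfap2a*). Their summed level was 418 to 454 in WT, 710 to 798 in *Ezh2* KO, 974 to 1112 in dKO and 842 to 1046 in Y726D, while *Elf5* was at 0 to 2.90 in every library. Of 9 primitive endoderm genes, 5 could be tested and *Gata4* and *Dab2* rose in dKO, with a summed level of 305 to 462 in WT, 261 to 617 in *Ezh2* KO, 443 to 683 in dKO and 303 to 814 in Y726D, while *Sox17* and *Foxa2* were at 0 to 2.89. Of 7 neuroectoderm genes in the table, 4 could be tested, *Neurog1* rose in dKO and *Otx1* in Y726D, and the summed level was 80.9 to 103 in WT, 32.4 to 68.7 in *Ezh2* KO, 195 to 246 in dKO and 123 to 142 in Y726D. Of 7 primitive streak and mesoderm genes in the table, 3 could be tested and 0 were called against WT, with a summed level of 41.4 to 43.3 in WT, 16.7 to 24.2 in *Ezh2* KO, 55.2 to 110 in dKO and 64.2 to 175 in Y726D, and *Lhx1* at 0 in WT. Of 6 fibroblast genes in the table, 2 could be tested. *Thy1* rose in dKO and Y726D. *Vim* was not called, at −0.40 in *Ezh2* KO, −0.80 in dKO and −0.63 in Y726D. The summed level was 921 to 1786 in WT, 771 to 1246 in *Ezh2* KO, 747 to 955 in dKO and 588 to 1440 in Y726D. *Col1a2*, *S100a4* and *Lum* were at 0 in WT and at 0 to 5.77 in the mutants. *Col1a1* was at 1.33 and 0 in WT and at 4.12 and 11.5 in dKO. The part of differentiated cells in the changes of the homeobox genes was not tested.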

How the data were processed

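Normalized counts of the 4 RNA lines and the peak lists of SUZ12, H3K27me3, H3K27ac, HA, H3K27me1, H3K27me2 and ATAC were used. The genes were chosen by name, and their peaks were described, not used to choose them. The genes and lists were chosen with earlier results of these data known. RNA reads were mapped by the authors to mm9 with TopHat, counted with HTSeq-count without strand and divided by DESeq2 size factors; the deposited table holds this signal, and 100% of its values were whole multiples of the value of 1 read in their column (tolerance 1e-06), so read counts were recovered. For ChIP-seq and ATAC-seq the authors used Bowtie, PICARD and MACS2, and the deposited −log10 p per peak was used, at p of at most 1e-10 for SUZ12, H3K27me3 and H3K27ac. The deposited HA lists give positions only, a unit outside any scale. Samples labelled Y726D that name no *Ezh1* knockout were read as that line. The deposited comparisons with WT hold the authors' fold changes and p-values and were not used.

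Here, limma 3.58.1 (R 4.3.3) was fitted with a trend on log2(normalized count + 1) to all 8 libraries, for genes with a mean of at least 5, with Benjamini-Hochberg adjustment, and tests were two-sided. edgeR 4.0.16 and DESeq2 1.42.0 on recovered reads, other pseudocounts, filters, scalings and left-out libraries were alternatives. With 2 against 2 libraries an exact permutation test cannot go below 0.333. Genes were matched to GENCODE vM1 by symbol (16570) or by a unique RefSeq synonym (854), and 631 were unmatched; all 40 homeobox genes matched. A gene and several promoter sequences are not reported here. H3K27me1 and H3K27me2 were compared on the 9 and 19 chromosomes listed in all lines. The depth of the ChIP-seq and ATAC-seq libraries is unknown. Named in full were the genes called in any comparison and up to 6 more per mutant whose libraries did not overlap WT; SUZ12 peaks absent in WT, kept in dKO or among the 5 strongest; other genes were given by counts and ranges. Reads in exons shared with other genes (*Dlx1*, *Dlx4*, *Evx1*, *Gbx2*, *Nkx1-2*, *Nkx2-6* and *Nkx6-2* overlap one) are uncertain. Both analyses were tested on simulated data. Python 3.11.15, pandas 2.3.3 and matplotlib 3.10.9 were used.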

Additional observations from a re-analysis of the deposited data

Results flagged for a closer look

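The effect against WT differed between mutant lines at the following genes by the direct test between the lines (limma, adjusted over 13872 genes). *En2* was higher by 3.56 on the log2 scale in dKO than in *Ezh2* KO and by 3.66 in Y726D than in *Ezh2* KO, with both libraries of each line beyond both of *Ezh2* KO. *Nkx6-3* differed the other way, by −2.42 between dKO and *Ezh2* KO. *Nkx2-9* was higher by 2.53 in Y726D than in *Ezh2* KO. The adjusted p-values were 0.00952 and 0.00958 for *En2*, 0.0582 for *Nkx6-3* and 0.041 for *Nkx2-9*.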

How the results depend on the processing

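The number of genes called was recomputed in 90 fits and stayed within 1.5 times of the reported count in 63. Against WT, dKO gave 2 calls in place of 4 with a mean of at least 20, with quantile normalization (1 higher and 1 lower, against 3 and 1) and at an adjusted p under 0.05. Y726D gave 0 in place of 2 with a mean of at least 20, with only the libraries compared and at an adjusted p under 0.05, 1 with edgeR, and 2 with quantile normalization (1 higher and 1 lower, against 2 and 0). dKO against *Ezh2* KO gave 7 with no filter, 6 with only the libraries compared, 1 with a mean of at least 20 and 1 at an adjusted p under 0.05, in place of 3, and 2 with quantile normalization (1 higher and 1 lower, against 2 and 1). Y726D against *Ezh2* KO gave 5 with no filter and 0 with a mean of at least 20, in place of 2. A mean of at least 20 leaves 7 genes to test and no filter leaves 40. Leaving out 1 library gave 0 to 2 calls for dKO against WT, 0 to 2 for Y726D against WT, 0 to 2 for dKO against *Ezh2* KO and 1 to 4 for Y726D against *Ezh2* KO. The other causes were not tested.

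Over all tested genes, replicate numbers showed no common pairing of the samples (correlation of deviations −0.41 to 0.29). Single genes can differ. *Cdx1*, *Hhex* and *Nkx6-2* were higher in replicate 2 in every line, and *Gbx2* and *Cdx2* in every mutant. For *Ezh2* KO against WT, a replicate block lowered the SE of *Gbx2* from 0.77 to 0.53 and of *Hhex* from 0.47 to 0.36. It raised that of *En2* from 0.51 to 0.52. With the replicate block the counts were 0, 3, 2, 2, 2 and 0 for *Ezh2* KO, dKO and Y726D against WT, dKO and Y726D against *Ezh2* KO, and Y726D against dKO; *Cdx4* in dKO against WT (adjusted p = 0.111) was not called. Over single genes, 351 of 410 alternative values stayed on their side of the threshold, 49 lost a call, 10 gained one and 0 changed direction. The libraries of these genes did not overlap between the lines compared, so a left-out library could not change a direction.

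Peak counts stayed within 1.5 times in 72 of 98 alternatives. Lists were also limited to the length of the shortest (317 peaks for SUZ12). SUZ12 was then at 16 genes in WT, 14 in *Ezh2* KO, 9 in Y726D and 17 in R685C. The dKO list has this length and held SUZ12 at 11. The order between WT and R685C turned, and so did those of Y726D with *Ezh2* KO and with dKO. Limited to 53 peaks, H3K27me3 was at 0 in WT and 3 in *Ezh2* KO and in R685C, and limited to 17618, H3K27ac was at 11 in Y726D. At p of at most 1e-20, SUZ12 was at 0 in dKO and 17 in Y726D, and H3K27ac at 0 in *Ezh2* KO, 0 in dKO and 10 in Y726D. With a window of 1 kb, SUZ12 was at 4 in dKO, H3K27ac at 0 in *Ezh2* KO, 1 in dKO and 1 in R685C, HA at 0 in the untagged control, H3K27me1 at 0 in WT, 7 in *Ezh2* KO and 6 in dKO, and H3K27me2 at 3 in WT and 17 in dKO. With an overlap of at least 500 bp, SUZ12 was at 5 in dKO, H3K27ac at 0 in *Ezh2* KO and HA at 0 in the untagged control.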
